A study of Homo sapiens with 8 samples.

Results

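The Notch ligand genes JAG2 and JAG1, the receptor genes NOTCH1, NOTCH2 and NOTCH3 and the target gene HES1 were taken by symbol from the table of gene counts. All 6 had a row, among 13751 distinct symbols, and all 6 passed the filter on low counts, which left 11351 rows for testing. JAG2 was picked because its values separated the groups in this same contrast, so its difference is described and not tested. The other 5 genes were taken as its receptors, its sister ligand and a downstream gene, with earlier results of these data known.

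The cells were A549, an established human lung adenocarcinoma line used as a model of alveolar epithelium. All 8 libraries came from cells under cyclic stretch (15% elongation, 15 cycles per min) for 24 h, which were then cultured for 6 days and sorted by β-galactosidase staining, a lysosomal activity that rises in senescent cells. The 4 positive libraries (numbers 1, 3, 4 and 5) are labelled senescent and the 4 negative libraries (numbers 2, 6, 7 and 8) non-senescent. Both groups were stretched, so the comparison is between stained and unstained cells within stretched cultures, and unstretched cells were not analysed here. The libraries all came from 1 cancer line, and nothing in the labels ties them to separate cultures, so the spread behind each p-value may be technical.

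Notch signalling passes between touching cells. A Jagged or Delta-like ligand on one cell binds a Notch receptor on its neighbour, and pulling on the bond exposes the receptor to cleavage by an ADAM protease and then by γ-secretase. The freed intracellular part enters the nucleus, where it joins the DNA-binding protein RBPJ and a Mastermind coactivator and switches on genes such as HES1, a repressor that holds back differentiation. In the lung the pathway is known for setting the balance of secretory and ciliated cells in the airways, and in cultured cells undergoing senescence NOTCH1 is known to influence which factors are secreted.

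Library totals ranged from 5634961 counts in positive 1 to 7990839 in negative 2. Values are given as CPM, counts scaled to a common library size, after TMM scaling, a correction for differences in library composition. The TMM factor was 0.862 in negative 2 and between 0.959 and 1.066 in the other libraries. Each gene was read through its own amplicon, so levels of different genes are not comparable and only levels of 1 gene between libraries are compared. Positive 1 and negative 2 stood apart: positive 1 held the highest of the 8 values in 23.9% of the tested rows and the lowest in 23.9%, and negative 2 in 29.4% and 26.2%. The summed level of 10 epithelial and A549 markers was 7690 to 8960 CPM (before TMM scaling) in positive libraries and 8750 to 10100 CPM in negative libraries. All 10 of these markers had a row. Of 8 type 2 alveolar markers 5 had a row, with a sum of 22.0 to 38.2 CPM in positive and 15.4 to 31.4 CPM in negative libraries, and the surfactant genes SFTPA1, SFTPA2 and SFTPD were not analysed here. Type 1 alveolar markers, of which 3 of 6 had a row (AGER, CAV1 and HOPX), separated the groups, with sums of 10.7 to 14.0 CPM in positive and 5.88 to 9.14 CPM in negative libraries. AGER alone was at 3.78 to 8.34 CPM in positive and 1.63 to 2.51 CPM in negative libraries, whereas CAV1 and HOPX overlapped. The 6 fibroblast markers with a row, of 8, summed to 20.6 to 21.2 CPM in positive libraries and 18.3 to 21.3 CPM in negative libraries, and the only endothelial marker with a row, of 6, reached at most 1.21 CPM. Of 6 leukocyte markers 3 had a row (CD68, LYZ and CD14, of which epithelial cells can express CD68 and LYZ), with sums of 72.4 to 77.2 CPM in positive and 51.1 to 72.6 CPM in negative libraries. The part of these markers in the results below was not tested.

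JAG2, a transmembrane ligand of the Jagged class, had 312, 154, 168 and 117 counts in positive 1, 3, 4 and 5, and 74, 51, 35 and 70 counts in negative 2, 6, 7 and 8. As CPM these were 52.1, 20.1, 22.4 and 15.3 in the positive and 10.8, 8.63, 5.40 and 9.98 in the negative libraries. Every positive value lay above every negative value, the nearest pair being positive 5 and negative 2, and positive 1 was more than double any other library. The mean was 27.5 ± 16.7 CPM in positive and 8.69 ± 2.36 CPM in negative cells (SD, n = 4 each), or a log2 fold change of 1.65 ± 0.37 (SE) and a fold of 3.14. JAG2 had the 36th highest log2 fold change of the 11351 rows. Because JAG2 was chosen for this separation, these values carry no test. The groups did not overlap in 9.14% of all tested rows.

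The 3 positive libraries other than positive 1 had a mean of 19.3 ± 3.6 CPM (SD, n = 3), 2.22 times the negative mean. Refitted without positive 1 the log2 fold change of JAG2 was 1.14, and without both positive 1 and negative 2 it was 1.28. JAG2 also varied more than most genes between libraries of 1 group: its biological coefficient of variation, the spread beyond counting error, was 0.36 and stood at the 89.8th percentile of the tested rows. Positive 5 and negative 7 were the lowest of their groups.

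JAG2 lies on chromosome 14 at 105140981 to 105168824 on the minus strand (GRCh38, GENCODE annotation), is protein-coding, and overlaps 2 other annotated genes on the same strand, neither with a row in the table. Its promoter is shown because JAG2 has the largest difference of the 6 genes and this stretch is among the most GC-rich. The window, from RefSeq (GRCh38.p14), covers the 250 bases before and the 50 bases from the annotated start, chr14:105168727-105169026, minus strand. No base is in capitals since it holds no TGGGAA, the core motif bound by RBPJ, on either strand.

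JAG2 promoter: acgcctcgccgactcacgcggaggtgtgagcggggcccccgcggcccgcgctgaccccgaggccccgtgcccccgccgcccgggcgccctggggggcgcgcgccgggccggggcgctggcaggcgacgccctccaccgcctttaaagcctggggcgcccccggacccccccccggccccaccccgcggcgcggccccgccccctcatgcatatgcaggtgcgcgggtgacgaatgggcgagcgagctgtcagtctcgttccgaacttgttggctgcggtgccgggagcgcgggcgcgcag

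This window is 79.7% G and C, at the 97.4th percentile of 34943 annotated promoters of the same length. The longest JAG2 transcript is 64.0% G and C, close to NOTCH1 (62.9%) and NOTCH3 (63.1%), whereas JAG1 (49.6%), NOTCH2 (49.4%) and HES1 (49.9%) are lower. When a smooth curve over transcript GC content and length was removed from each library, the log2 fold change of JAG2 was 1.36. Here and below, this curve used the longest annotated transcript and not the amplicon that was read. It may therefore miss effects of the amplicon's own GC content and length.

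JAG1, the sister ligand, showed no such separation. Its levels were 38.7, 34.1, 39.4 and 40.1 CPM in positive 1, 3, 4 and 5 and 53.5, 39.3, 34.9 and 44.1 CPM in negative 2, 6, 7 and 8. The groups overlapped almost throughout, and negative 2 was highest. Means were 38.1 ± 2.72 and 42.9 ± 7.99 CPM (SD, n = 4 each), which gave a log2 fold change of -0.17 (95% interval -0.57 to 0.22, edgeR adjusted p = 0.648), which was -0.03 without negative 2. JAG1 was among the steadier genes, with a biological coefficient of variation of 0.20 at the 13.5th percentile. Its gene is on chromosome 20 at 10637684 to 10673999, minus strand.

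The ratio of JAG2 to JAG1 counts within each library sets the ligands side by side without any scaling between libraries. It was 1.34, 0.59, 0.568 and 0.382 in positive 1, 3, 4 and 5, against 0.201, 0.22, 0.155 and 0.227 in negative 2, 6, 7 and 8. The ratios did not overlap, and the spread among positive libraries was wider than among negative ones. Since each gene has its own amplicon, the ratio does not give the ratio of molecules, and it inherits the choice of JAG2, so it is a description only. The third ligand that was tested, DLL3, a Delta-like protein that acts inside the cell and does not activate receptors, was at 46.3 ± 4.42 CPM in positive and 51.2 ± 17.3 CPM in negative cells (SD, n = 4 each). Its log2 fold change was -0.15 (-0.63 to 0.33, edgeR adjusted p = 0.754) and turned to 0.13 without negative 2, which at 76.6 CPM was the highest library. DLL4 had 3 to 10 counts per library and did not pass the filter, and DLL1, DLK1 and DLK2 were not analysed here.

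**Figure D1:**
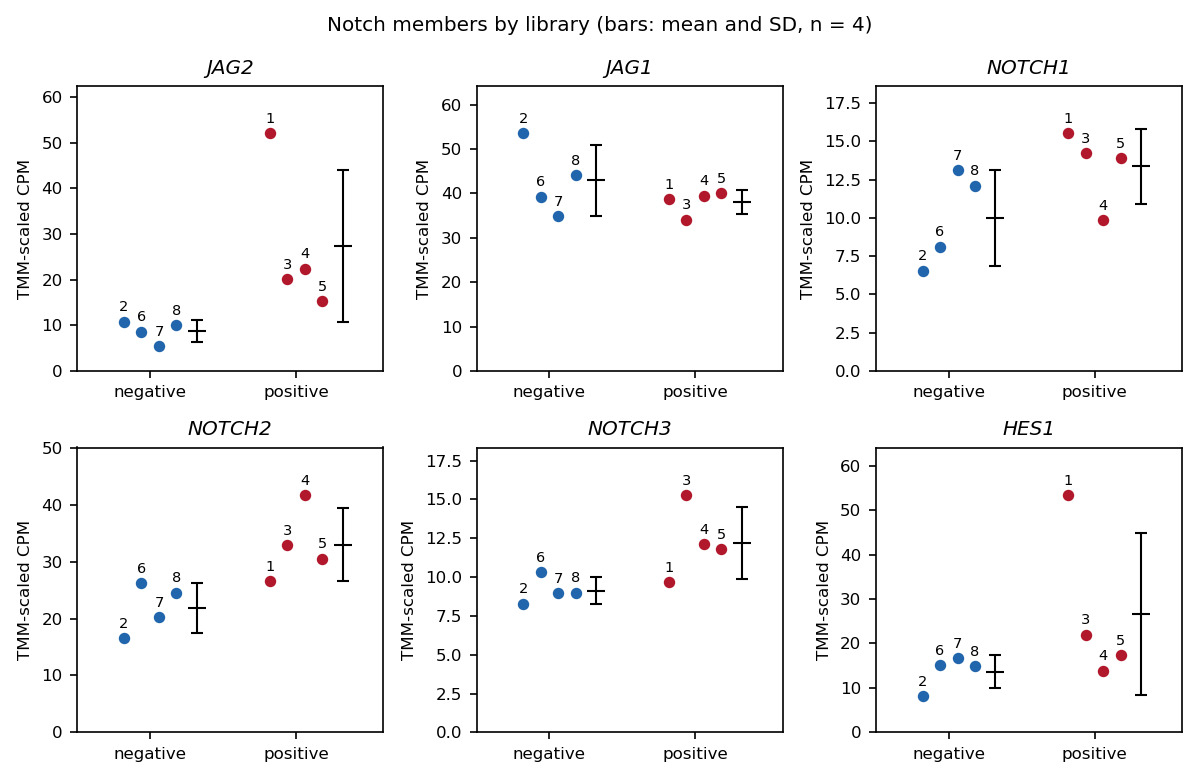
TMM-scaled CPM of JAG2, JAG1, NOTCH1, NOTCH2, NOTCH3 and HES1 in each library, with linear axes from 0, points labelled by library number and black bars for mean and SD (n = 4 per group). JAG2, picked for its separation, and NOTCH2 have no overlap between groups, NOTCH2 by a margin of 26.5 against 26.2 CPM. Of all tested rows 9.14% have no overlap. Positive 1 is far above the other libraries for JAG2 (52.1 CPM) and HES1 (53.4 CPM) only.

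All 3 receptors had higher means in the positive cells, and none passed an adjusted p of 0.05. The receptors are single-pass proteins whose released intracellular part is the signal. NOTCH2 was at 26.5, 32.9, 41.7 and 30.5 CPM in positive 1, 3, 4 and 5 and at 16.6, 26.2, 20.2 and 24.5 CPM in negative 2, 6, 7 and 8. The groups did not overlap, but positive 1 (26.53 CPM) and negative 6 (26.23 CPM) were nearly equal. Means were 32.9 ± 6.42 and 21.9 ± 4.35 CPM (SD, n = 4 each), which gave a log2 fold change of 0.59 (95% interval 0.12 to 1.06) with an unadjusted p of 0.0178 and an edgeR adjusted p of 0.312. Unlike JAG2 and HES1, NOTCH2 was lowest among the positive libraries in positive 1, and its log2 fold change was 0.68 without that library. It was lowest, at 0.47, without positive 4, where the unadjusted p was 0.0605. Of all tested rows 14.4% had an unadjusted p under 0.05.

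Part of the NOTCH2 gene has near-identical copies, and the row NOTCH2NL holds counts assigned to such copies, so the division of reads between NOTCH2 and NOTCH2NL is uncertain. NOTCH2NL had 501, 367, 304 and 430 counts in positive 1, 3, 4 and 5 and 434, 245, 322 and 347 counts in negative 2, 6, 7 and 8, so positive 1 was its highest library. The log2 fold change of NOTCH2NL was 0.16 (95% interval -0.34 to 0.66, edgeR adjusted p = 0.741). NOTCH2 lies on chromosome 1 at 119911553 to 120069626, minus strand.

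NOTCH1 was at 15.5, 14.2, 9.86 and 13.9 CPM in positive 1, 3, 4 and 5 and at 6.54, 8.12, 13.1 and 12.1 CPM in negative 2, 6, 7 and 8. Positive 4 fell inside the negative range. The log2 fold change was 0.42 (-0.16 to 0.998, edgeR adjusted p = 0.454), and it was 0.28 without negative 2 and 0.19 after removal of the GC and length curve. NOTCH3 was at 9.68, 15.3, 12.1 and 11.8 CPM in positive 1, 3, 4 and 5 and at 8.29, 10.3, 8.95 and 8.98 CPM in negative 2, 6, 7 and 8. Only positive 1 fell inside the negative range. Its log2 fold change was 0.42 (-0.05 to 0.90, edgeR adjusted p = 0.381), or 0.18 after removal of the GC and length curve. With voom weights it was 0.53. Both genes rest on few counts, 45 to 109 per library for NOTCH1 and 57 to 117 for NOTCH3. NOTCH1 is on chromosome 9 at 136494433 to 136545786 and NOTCH3 on chromosome 19 at 15159038 to 15200981, both on the minus strand. NOTCH1 and JAG1 each overlap an annotated antisense gene with no row in the table. NOTCH4 was not analysed here.

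HES1, a basic helix-loop-helix repressor switched on by cleaved Notch, was at 53.4, 21.95, 13.9 and 17.3 CPM in positive 1, 3, 4 and 5 and at 8.14, 15.1, 16.7 and 14.8 CPM in negative 2, 6, 7 and 8. Positive 1 was far above all others and negative 2 far below them, while the other 6 libraries lay between 13.9 and 21.95 CPM with the groups interleaved. Means were 26.6 ± 18.2 and 13.7 ± 3.78 CPM (SD, n = 4 each). The log2 fold change was 0.96 (95% interval 0.10 to 1.81), with an unadjusted p of 0.0311 and an edgeR adjusted p of 0.321. It was 0.37 without positive 1 and 0.21 with negative 2 left out as well, at unadjusted p of 0.193 and 0.326. HES1 had the highest biological coefficient of variation of the 6 genes, 0.39, at the 92.9th percentile.

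HES1 lies on chromosome 3 at 194136145 to 194138732 on the plus strand. Its promoter is shown since it is the only one of the 6 that holds the RBPJ core motif, TGGGAA, printed in capitals. The window, from RefSeq (GRCh38.p14), covers the 250 bases before and the 50 bases from the start, chr3:194135898-194136197.

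HES1 promoter: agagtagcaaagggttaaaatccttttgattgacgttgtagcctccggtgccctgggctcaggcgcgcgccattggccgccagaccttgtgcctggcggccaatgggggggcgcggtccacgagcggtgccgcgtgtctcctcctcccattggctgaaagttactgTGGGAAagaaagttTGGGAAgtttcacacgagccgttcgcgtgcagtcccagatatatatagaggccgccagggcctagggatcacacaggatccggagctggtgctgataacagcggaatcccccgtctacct

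The motif occurs here 2 times on the gene's own strand, beginning 84 and 70 bases before the start. At least 1 copy on either strand was found in 24.0% of 34943 promoters of this length and at least 2 copies in 3.79%. The longer form GTGGGAA, which overlaps the first copy, occurs once here and in 6.24% of promoters. CACNAG, the N-box bound by HES proteins themselves, was found 4 times over both strands of the HES1 window, 2 times in NOTCH1, once each in NOTCH2 and NOTCH3 and not in JAG1 or JAG2. It occurs at least once in 38.0% of promoters. These matches describe the reference sequence and not binding in these cells.

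**Figure D2:**
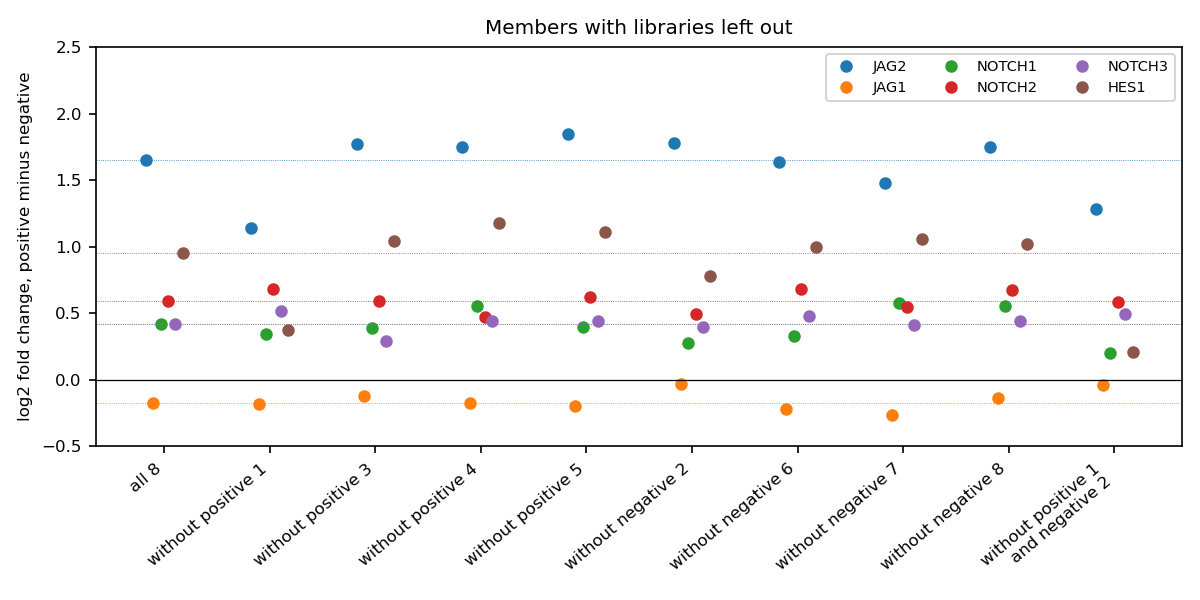
Log2 fold change of each of the 6 genes (positive minus negative, y axis) with all 8 libraries, with each library left out, and without both positive 1 and negative 2, with dotted lines at the value from all libraries. HES1 is at 0.96 with all libraries, 0.37 without positive 1 and 0.21 without both libraries, JAG2 stays between 1.14 and 1.85, NOTCH2 between 0.47 and 0.68, and JAG1 is below 0 throughout.

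Leaving out JAG2, which was picked on this contrast, 4 of the other 5 genes had a log2 fold change above 0, with a median of 0.42, where 48.1% of all tested rows were above 0 and the median was -0.02. Of the 6 genes only JAG2, which was picked for its separation, and NOTCH2 had groups without overlap. For NOTCH2 the margin was narrow, with positive 1 at 26.53 CPM and negative 6 at 26.23 CPM. Without JAG2 that left 1 of 5 genes, where 9.14% of all tested rows had no overlap. Over all 11351 rows edgeR called 0 (0.00%) at an adjusted p of 0.05, with 1631 at an unadjusted p under 0.05, while DESeq2 called 52 and limma voom called 0. The median half-width of a 95% interval was 0.54 over all tested rows. In sorted bulk RNA, more cells with a transcript and more transcript per cell cannot be told apart.

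The rest of the pathway was described from a list of 86 genes in 8 roles, written with earlier results of these data known. Of these, 76 had a row and 67 passed the filter. An unadjusted p under 0.05 was found for 12 higher and 1 lower gene, the chosen JAG2 among them. Without the 6 genes above it was 9 higher and 1 lower of 61, or 16.4%, against 14.4% of all tested rows (7.52% higher and 6.85% lower), and their median log2 fold change was 0.05. The share of these 61 with no overlap between groups was 9.84%, against 9.14% of all rows. Over both directions these shares lay near the background. By direction the 9 higher and 1 lower stood against 854 higher and 777 lower over all tested rows. This lean was not tested. Of the 66 tested pathway genes besides JAG2, the smallest adjusted p was 0.309 in edgeR and 0.1 in DESeq2. Over all 67 tested genes, with the 6 genes above included, the count of 13 (19.4%) was 7 (10.4%) without positive 1. It was also 7 (10.4%) without negative 2. The share over all rows was 10.4% and 9.7% in these runs. Since JAG2 was picked on this contrast and is in the list, these counts are a description only. Scaling by library totals moved the median of all rows by 0.12 and the share of rows at p under 0.05 that were higher from 52.4% to 78.2%, and upper quartile scaling moved that share to 69.2%. With either of these scalings 13 of the 67 pathway genes, a set that holds JAG2, were higher and 0 lower. That is 19.4%, against 13.8% of all rows with upper quartile scaling and 13.1% with library totals. After removal of a curve over transcript GC content and length, 7 pathway genes were higher and 4 lower (16.4%). Over all rows 677 were higher and 898 lower (14.1%) in that run.

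The higher genes at an unadjusted p under 0.05 included 3 enzymes that modify the receptor before it reaches the surface. The glucosyltransferase POGLUT1 and the fringe enzymes LFNG and RFNG attach or extend sugars on the receptor's EGF repeats, which tunes the response to Jagged and Delta-like ligands. LFNG was at 15.0, 10.1, 8.66 and 10.5 CPM in positive 1, 3, 4 and 5 and at 6.40, 7.28, 8.03 and 8.27 CPM in negative 2, 6, 7 and 8, narrowly without overlap. The log2 fold changes of LFNG, RFNG and POGLUT1 were 0.56, 0.39 and 0.56 (edgeR adjusted p = 0.328, 0.338 and 0.328). POGLUT1 was at 0.27 and LFNG at 0.38 without positive 1, whereas RFNG stayed at 0.40. RFNG was at 0.17 after removal of the GC and length curve.

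The 1 lower gene was APH1A, a subunit of the γ-secretase that releases the intracellular part. APH1A was at 35.0 ± 7.68 CPM in positive and 54.9 ± 24.0 CPM in negative cells (SD, n = 4 each), for a log2 fold change of -0.65 (edgeR adjusted p = 0.324), with negative 2 at 90.9 CPM. It was -0.28 without negative 2. Among the other subunits PSENEN was at -0.31 (adjusted p = 0.392), and NCSTN, added for its role after its value was seen, at -0.07. The furin protease FURIN, which makes the first cut in the receptor, was at 144 ± 57.9 and 135 ± 43.0 CPM. In the 13 tested genes of receptor glycosylation and cleavage, 3 were higher and 1 lower at an unadjusted p under 0.05. That is 30.8%, against 14.4% of all tested rows.

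Ligands must be ubiquitinated and taken up by their own cell to pull on a receptor. MIB1, the main ubiquitin ligase for this, was at 65.7 ± 9.59 and 60.3 ± 8.62 CPM in positive and negative cells (SD, n = 4 each). MIB2 was at 2.72 ± 0.54 and 1.89 ± 0.44 CPM and the endocytic adaptor EPN2 at 100.2 ± 19.8 and 84.3 ± 11.5 CPM. None of the 3 tested genes of this role had an unadjusted p under 0.05, where 14.4% of all tested rows did.

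Genes of receptor trafficking and turnover gave 3 higher and 0 lower of 12 at an unadjusted p under 0.05. That is 25.0%, against 14.4% of all tested rows. DTX3, an E3 ligase of the Deltex family, was at 74.3, 68.9, 58.8 and 59.8 CPM in positive 1, 3, 4 and 5 and at 30.0, 51.3, 42.5 and 41.9 CPM in negative 2, 6, 7 and 8. The groups did not overlap and positive 1 did not stand far above the rest. Its log2 fold change was 0.66 (95% interval 0.25 to 1.07, unadjusted p = 0.00448, edgeR adjusted p = 0.309), and it was 0.59 without positive 1, 0.55 without negative 2 and 0.49 without both. The related DTX2 was at 0.58 (adjusted p = 0.340) and at 0.24 without positive 1. NUMBL, whose relative NUMB directs receptors to degradation, was at 0.67 (adjusted p = 0.312), with positive 1 at 81.1 CPM and the other positive libraries between 37.5 and 47.7 CPM. NUMBL was at 0.37 without positive 1. NUMB, added after its value was seen, was at -0.10 and the ubiquitin ligase NEDD4 at -0.19.

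In the nucleus, the activator complex had 0 of 8 tested genes at an unadjusted p under 0.05, against 14.4% of all tested rows. RBPJ, named here for its role after its values were seen, was at 19.2 ± 1.17 CPM in positive and 17.8 ± 3.02 CPM in negative cells (SD, n = 4 each). MAML2, a Mastermind coactivator, was at -0.58 (95% interval -1.18 to 0.02, edgeR adjusted p = 0.356), or -0.26 without positive 1 and negative 2. CREBBP and SNW1 were at -0.01 and -0.15. Of 16 corepressor genes 2 were higher and 0 lower at that threshold (12.5%, against 14.4% of all tested rows). SPEN, which joins RBPJ at silent targets, was at 40.9 ± 15.1 and 26.9 ± 5.35 CPM, and its log2 fold change of 0.60 (adjusted p = 0.324) was 0.33 without positive 1. CTBP1 was at 270.2 ± 34.0 and 187.8 ± 37.3 CPM, a log2 fold change of 0.53 (adjusted p = 0.312), or 0.49 without positive 1.

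Of 9 tested target genes only HES1 and IL7R had an unadjusted p under 0.05 (22.2%, against 14.4% of all tested rows). IL7R, a cytokine receptor that Notch controls in lymphoid cells, had 20, 18, 16 and 10 counts in positive 1, 3, 4 and 5 and 5, 3, 5 and 14 counts in negative 2, 6, 7 and 8, and at a log2 fold change of 1.14 (95% interval 0.11 to 2.18, edgeR adjusted p = 0.323) rests on very few counts. CCND1, which encodes cyclin D1, was at -0.17 and BHLHE40 at 0.32. BHLHE40 was at 0.13 without positive 1 and at -0.02 without both positive 1 and negative 2. HES4 and NRARP, other targets of the pathway, were singled out after their values were seen. HES4 was at 7.84 CPM in positive 1 and 2.995 to 4.85 CPM elsewhere. NRARP, a feedback inhibitor, was at 5.17 CPM in positive 1 and at 0.915 to 2.36 CPM elsewhere. Both thus had their highest value in the library where HES1 and JAG2 were highest, and without that library their log2 fold changes were 0.11 and -0.10. HES4 and NRARP rest on few counts, 20 to 47 and 7 to 31 per library. Since they were singled out after their values were seen, this likeness is a description only. Positive 1 held the highest value in 22 of the 67 tested pathway genes (32.8%) and in 23.9% of all tested rows. Negative 2 held it in 14 pathway genes (20.9%), the targets CCND1 (103.2 CPM) and MYC (41.6 CPM) among them, and in 29.4% of all tested rows. HEY1 had 0 to 4 counts per library and did not pass the filter, and HES5, HES7, HEY2 and HEYL were not analysed here.

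**Figure D3:**
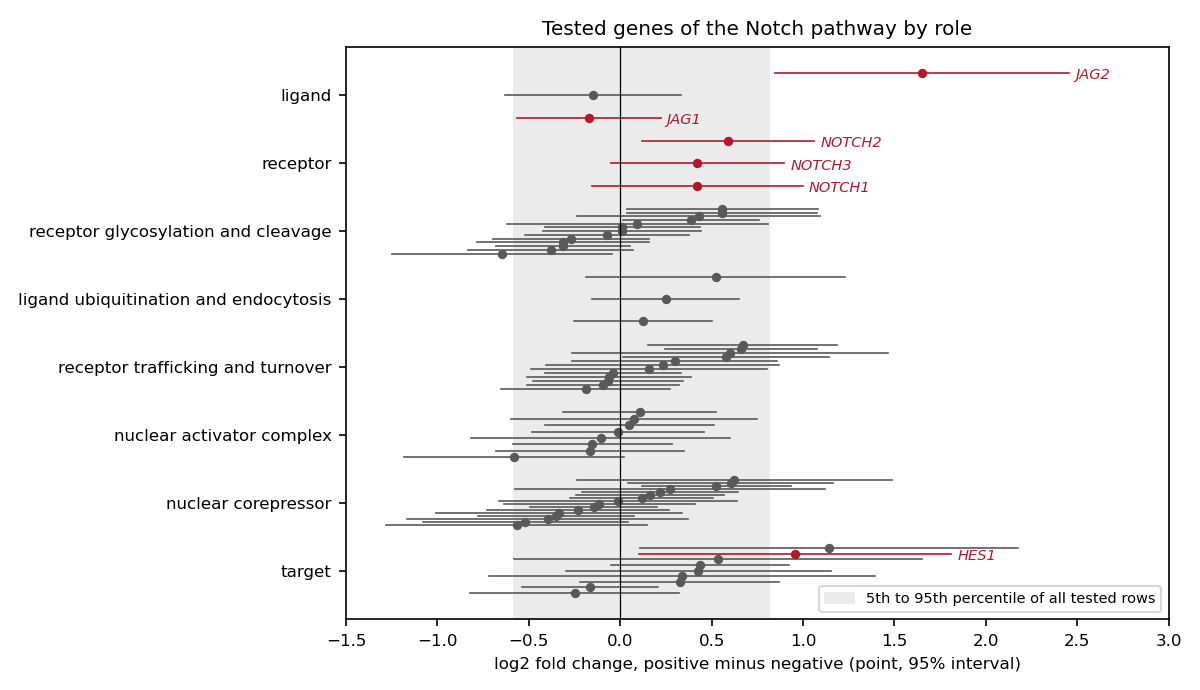
Log2 fold change (x axis, positive minus negative, points with 95% intervals) of the 67 tested pathway genes grouped by role, with the 6 main genes in red and the grey band from the 5th to the 95th percentile of all tested rows (-0.58 to 0.82). JAG2 (1.65), HES1 (0.96) and IL7R (1.14) lie beyond the band on the right, and most other genes lie within it.

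The region around JAG2 did not share its pattern as a whole. Of the 3 nearest tested protein-coding genes on each side, the closest was NUDT14, 4.11 kb away, at a log2 fold change of -0.05 (95% interval -0.51 to 0.40). AHNAK2, C14orf79 and CDCA4 on the lower side were at 0.16, 0.27 and 0.12, and BTBD6 on the higher side was at -0.29. BRF1, which encodes a subunit of the RNA polymerase III initiation factor lies 40.5 kb away and overlaps BTBD6 in the annotation, was at 0.80 (0.22 to 1.38), with positive 1 at 85.8 CPM and the other positive libraries between 39.1 and 45.3 CPM. Around HES1, the genes FGF12, MB21D2, OPA1, ATP13A3, LSG1 and FAM43A were at -0.09, -0.18, -0.30, -0.26, 0.60 and 0.79, and lie between 264 and 1370 kb away.

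The genes with the profiles most like JAG2 and HES1 were found by the root-mean-square difference between log2-CPM profiles, each centred on its mean over the 8 libraries. Closest to JAG2 were MROH1 (0.28), RTEL1 (0.33), RPL13AP6 (0.34), STRA6 (0.35) and RRP7B (0.35), where the median over all tested rows was 0.98. MROH1 was at 32.9, 13.7, 11.9 and 7.47 CPM in positive 1, 3, 4 and 5 and between 4.63 and 6.56 CPM in negative cells. RTEL1, a helicase that maintains telomeres, was at 10.3, 7.19, 4.66 and 4.98 CPM in the positive and between 1.70 and 3.85 CPM in the negative libraries. RPL13AP6 is a processed pseudogene whose counts may belong to copies. None of the other 5 Notch genes was among the 5 closest. All 5 were closer than the median row, JAG1 only narrowly (0.96 against 0.98). HES1 was 551st in likeness to JAG2 (0.66), NOTCH2 1855th, NOTCH1 2587th, NOTCH3 2795th and JAG1 5162nd.

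Closest to HES1 were RCN3 (0.17), PPAN (0.18), ADCK4 (0.20), NDOR1 (0.22) and NAT14 (0.22), with a median over all rows of 0.78. Each of these 5, like each of the 5 closest to JAG2, was highest in positive 1, and NAT14 was at 183.7 CPM there and 46.2 to 77.7 CPM elsewhere. Over 8 libraries some of 11351 rows are always close, so these names describe likeness only. The 2 sets of 5 had no gene in common. Of the other Notch genes, NOTCH1 was 694th in likeness to HES1 (0.47) and JAG2 3049th (0.66). NOTCH2 was 3761st, NOTCH3 3829th and JAG1 6734th (0.83), JAG1 farther than the median row.

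**Figure D4:**
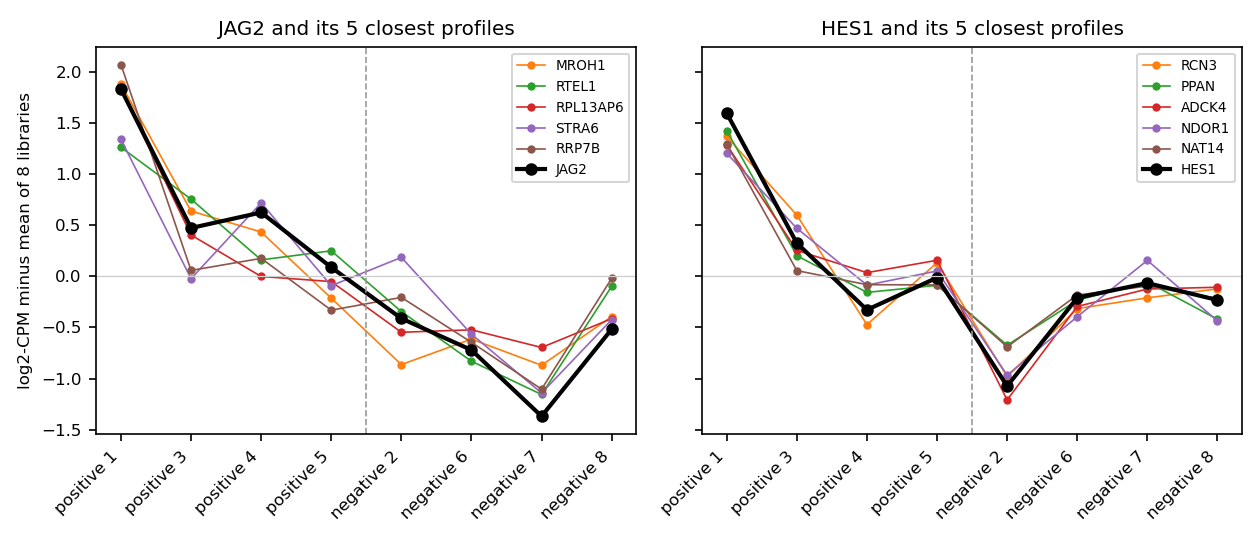
Log2-CPM minus the mean of the 8 libraries (y axis) in each library (x axis, positive left of the dashed line), for JAG2 (left) and HES1 (right) in black with the 5 closest genes in colour. All profiles peak in positive 1, those like HES1 are lowest in negative 2, and JAG2 is lowest in negative 7.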

How the data were processed

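RNA was extracted with Trizol and sequenced as targeted amplicon libraries (Ion Torrent), per the labels' protocols. The deposited table holds estimated counts for each gene, which the authors made with fastp 0.20.1, Salmon 1.9 and GRCh38, per the submitters' processing notes. They were already whole numbers. The sources used here do not name the transcript annotation or say how transcripts were summed. Each symbol was used as deposited, and 148 of 13841 rows share a symbol with another row and were kept apart. No pathway gene is among them.

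Rows were kept with filterByExpr (minimum count 10, total 15), leaving 11351 and removing 2490, and tested with edgeR 4.0.16 (TMM, robust quasi-likelihood test, R 4.3.3) with Benjamini-Hochberg adjustment over all rows at 0.05. Log2-CPM used a prior count of 2. DESeq2 1.42.0 and limma 3.58.1 (voom) were alternatives, beside other scalings, filters, thinning, a GC and length curve (mgcv 1.9.3, 98.1% of tested rows) and libraries left out. The members and lists were chosen with earlier results of these data known. Genes named were the 6 members, pathway genes at an unadjusted p under 0.05, in each role the 2 of smallest p and the 2 of highest CPM, the 5 closest profiles and 3 neighbours on each side of JAG2 and HES1. A few genes of the list are not reported here. On simulated counts for this comparison (11351 genes, 3 runs, 200 changed genes per run) the test recovered 38.7% of genes changed 2-fold. It recovered 94% of those changed 4-fold, and 5.01% of calls were false. The simulated counts were drawn independently, with no library set apart as positive 1 and negative 2 were, so these rates may not hold for the real libraries. GENCODE 29 gave coordinates, and promoters of all 6 members were found in RefSeq.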

Additional observations from a re-analysis of the deposited data

Results flagged for a closer look

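Among the 51 named genes, 102 groups of 4 libraries were screened for a single library far from the other 3, and 10 were found (9.8%, where chance gives about 1 in 20). Positive 1 was the high library in 8 of them. It was at 54.6 CPM for POGLUT1 (28.2 to 29.2 in the other positive libraries), 11.5 for CDCA4 (4.26 to 5.24), 85.8 for BRF1 (39.1 to 45.3) and 25.4 for RPL13AP6 (6.68 to 9.28). It was at 48.4 CPM for RRP7B (8.91 to 12.8), 77.6 for PPAN (25.7 to 33.1), 39.0 for ADCK4 (16.3 to 18.9) and 184 for NAT14 (70.5 to 77.7). The others were negative 2 for APH1A, at 90.9 CPM against 40.8 to 44.2, and negative 6 for MIB2, at 2.54 CPM against 1.599 to 1.71. For MIB2 this was 15 counts against 11, 11 and 12 in negative 2, 7 and 8, so it rests on very few counts. JAG2 and HES1 were not among the 10 found, although positive 1 was their highest library. The profiles closest to JAG2 and HES1 were chosen for likeness to genes that are high in positive 1, so their share of these findings is not independent.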

How the results depend on the processing

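No log2 fold change of the 5 tested genes changed sign and none of these genes passed the threshold in any alternative run. JAG2 kept its sign too, but it was picked for the separation of its groups, so its sign could hardly change. With each library left out in turn the log2 fold change ranged from 1.14 to 1.85 for JAG2, -0.27 to -0.03 for JAG1, 0.28 to 0.57 for NOTCH1, 0.47 to 0.68 for NOTCH2, 0.30 to 0.52 for NOTCH3 and 0.37 to 1.18 for HES1. Over the other 11 alternatives it ranged from 1.28 to 1.78, -0.21 to -0.04, 0.19 to 0.52, 0.51 to 0.69, 0.18 to 0.53 and 0.21 to 1.07, with HES1 at 0.40 in limma voom. Calls at an adjusted p of 0.05 numbered 0 in edgeR with all libraries, 52 with DESeq2's Wald test and 0 to 1 with 1 library left out. Pathway genes at an unadjusted p under 0.05, with JAG2 kept in the list, were 13 with all libraries. They numbered 7 to 13 with 1 library left out, and 2 at a threshold of 0.01. All rows gave 357 at that threshold in place of 1631. Rows without overlap, 1037 in all, numbered 1298 to 2010 with 1 library left out and 1851 without both positive 1 and negative 2, where fewer libraries make separation more frequent. No paired analysis was possible because each library number is used once. Depth limits JAG2 in negative cells (35 to 74 counts per library), NOTCH1 (45 to 109) and NOTCH3 (57 to 117).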
